A study of Mus musculus with 6 samples.

Results

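Extracellular adenosine is made and removed at the surface of cells, and the 10 genes described here cover its main steps: Nt5e, Entpd1, Entpd2, Enpp1, Enpp3, Ada, Adk, Slc29a1, Adora1 and Adora2b. They were chosen by name for these steps, with earlier results of these data known. Ensembl identifiers were matched to gene symbols, and all 10 of 10 were found among the 56953 genes of the deposited table. RNA had been sequenced from 6 mouse lines of pancreatic ductal adenocarcinoma (PDAC), each giving 1 library of stranded mRNA reads: KPC850, KPC630, KPC490, KPC469, KPC180 and KPC142. All 6 carry the strain label KPC, the usual name of a genetically engineered mouse model of pancreatic cancer driven by a Cre recombinase in the pancreas. The labels name no treatment, age or passage. The study set lines whose tumours draw in few CD8+ T cells beside lines that draw in many, but the labels do not say which line is of which kind, so each line stands alone and no group of lines was compared with another.

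ATP that leaves a cell is cut to ADP and AMP by enzymes of the Entpd and Enpp families, and CD73, the product of Nt5e, cuts AMP to adenosine. Adenosine acts on 4 receptors (Adora1, Adora2a, Adora2b and Adora3), which lower or raise cyclic AMP, and through the receptor encoded by Adora2a it restrains T cells. It is cleared by uptake through nucleoside transporters such as that of Slc29a1, by phosphorylation through adenosine kinase (Adk) and by deamination through adenosine deaminase (Ada). Tumours can therefore inhibit T cells by making more adenosine or by removing less of it.

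Values are CPM, counts scaled by the normalised library total. The totals ran from 16471558 to 18701274 counts, so that 1 count was worth 0.0534 to 0.0609 CPM. With 1 library per line there is no replicate check: a ratio between lines carries an exact conditional binomial 95% interval that covers counting error only, and no p-value is given. In a culture, more cells that express a gene and more RNA per cell cannot be told apart. KPC469 had the lowest mean Spearman correlation with the other lines, at 0.923, where the means of the other lines ran from 0.934 to 0.946. The tumour epithelium markers Krt8, Krt18, Krt19, Cdh1 and Msln stood at 297 CPM (Cdh1 in KPC490) or more in every line. The other 3 markers of that list of 8 were lower in places: Krt7 went down to 138 CPM in KPC469, Sox9 to 4.55 in KPC142, and Epcam ran from 0.244 in KPC180 to 10.6 in KPC630. The list summed to 3171 CPM in KPC469 and to 13056 in KPC850. Of 8 leukocyte markers 6 stayed under 1 CPM in every line, Ptprc (CD45) at 0.472 or less. The summed leukocyte list reached 139 CPM in KPC469, of which Cd14 made 136. Of 4 endothelial markers 3 stayed under 1 CPM, and the sum of this list reached 2.69 CPM. Of 6 fibroblast markers 3 reached 1 CPM in some line. These were Pdgfra (2.19 in KPC180 and in KPC469), Pdgfrb (2.99 in KPC469) and Col1a1 (2.69 in KPC630). The fibroblast list summed to at most 7.16 CPM, in KPC469, with Dcn and Lum at 0 counts. Cela1, an acinar marker, reached 20.7 CPM in KPC180, with the other 3 acinar markers at 0 counts.

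Of the 10 genes, 8 reached 1 CPM in at least 1 line and 6 reached 10 CPM. Enpp3 passed the lower level in KPC850 alone and Adora1 in KPC180 and KPC490 alone, so that both had to differ between lines. Of the 8 genes, 5 had a range (highest over lowest line, with lines under 3 counts set to 3) of 4-fold or more, where 27.1% of the 13949 genes at that level did. At 10 CPM the count was 3 of 6, Nt5e, Entpd2 and Ada, against 15.5% of 10229 genes, but Entpd2 reached that level only in KPC142, its highest line. The median range of the 8 genes was 7.40-fold, beside 2.16-fold over all genes at 1 CPM, and that of the 6 was 3.37-fold beside 1.91-fold. Since the set was chosen with earlier results of these data known, these comparisons with all genes describe the set and do not test it. Nt5e lay at the 92.7th percentile of the range over all genes at 1 CPM, and Slc29a1, Enpp1 and Adk near the middle, at 54.3, 57.2 and 58.2.

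**Figure D1:**
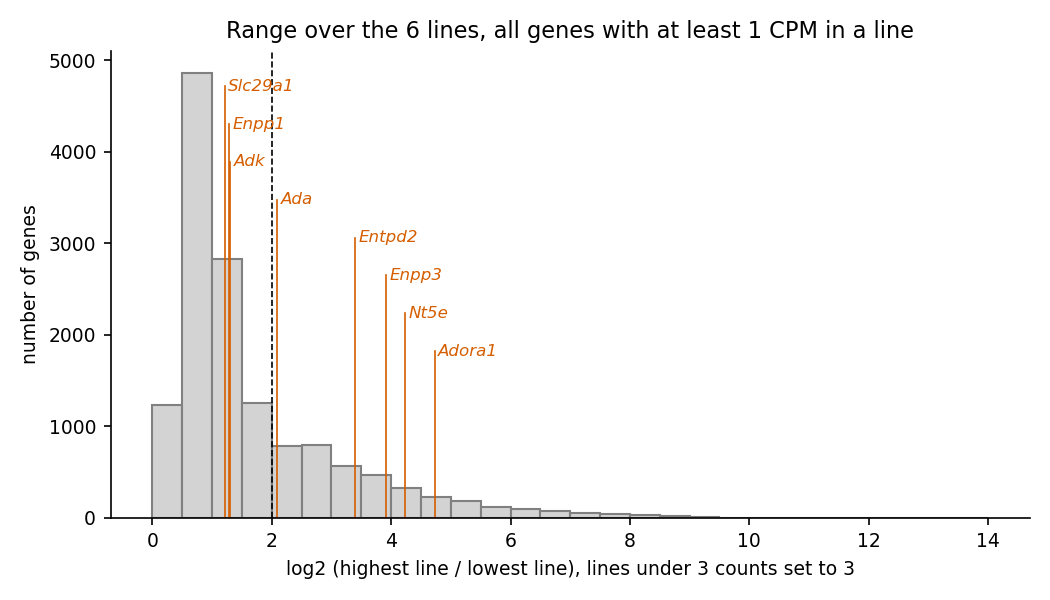
Range over the 6 lines, as log2 of the highest over the lowest line (horizontal axis, lines under 3 counts set to 3), for all 13949 genes at 1 CPM or above in some line (grey bars, number of genes). Orange lines mark the 8 adenosine genes at that level, and the dashed line marks 4-fold: Slc29a1, Enpp1 and Adk lie to its left, Ada, Entpd2, Enpp3, Nt5e and Adora1 to its right.

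Nt5e (ENSMUSG00000032420, chromosome 9), which encodes the AMP-cutting enzyme CD73, was the member of this set that varied most among those at 10 CPM. It stood at 107 CPM in KPC850, 105 in KPC180, 45.3 in KPC490, 33.7 in KPC142, 28.2 in KPC630 and 5.72 in KPC469. KPC850 and KPC180 were thus high, KPC469 was low, and the other 3 lay between. The ratio of KPC850 to KPC469 was 18.7 (15.4 to 23.0). Most of this range came from KPC469: without that line the ratio of KPC850 to the lowest line, KPC630, was 3.81 (3.45 to 4.20). KPC850 and KPC180 could not be ordered, at a ratio of 1.02 (0.955 to 1.09), and KPC180 exceeded the next line, KPC490, by 2.32-fold (2.13 to 2.52). The steps from KPC490 to KPC142 (1.35-fold) and from KPC142 to KPC630 (1.20-fold) were larger than counting error. The distance from KPC630 down to KPC469 was 4.92-fold (3.99 to 6.12).

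**Figure D2:**
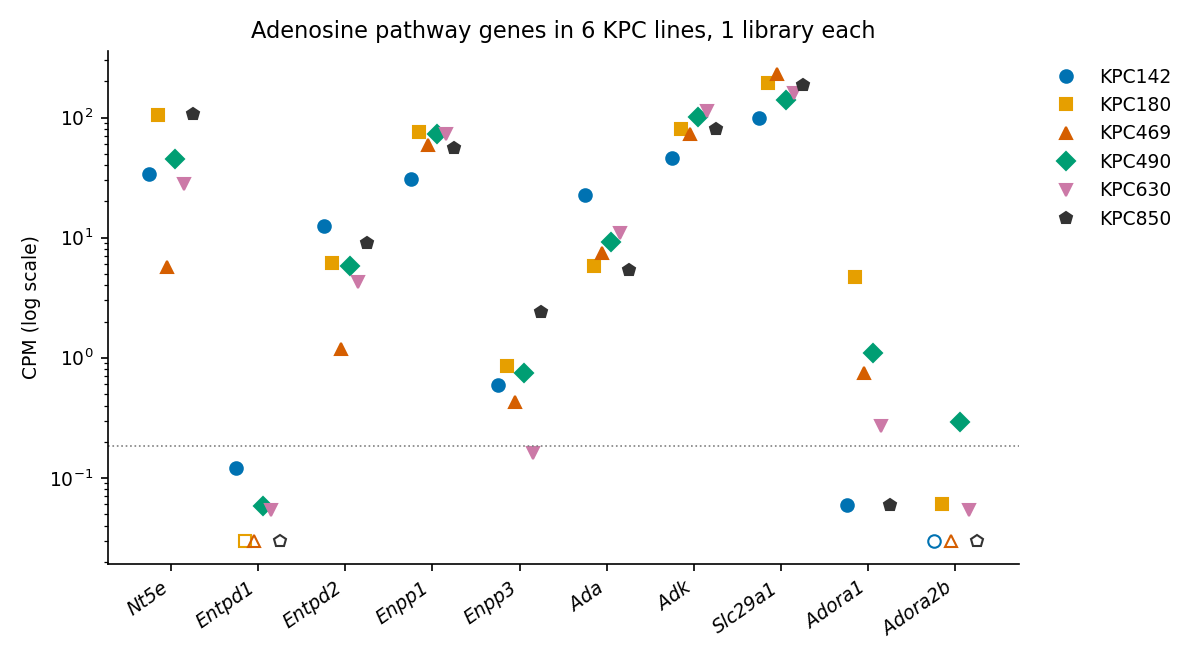
CPM on a log scale (vertical axis) of the 10 adenosine genes in each of the 6 lines, 1 point per library. Open symbols at the bottom mark 0 counts and the dotted line the level of 3 counts in the library where 1 count is worth most (0.183 CPM). Nt5e spreads from 5.72 to 107 CPM, while Enpp1, Adk and Slc29a1 range over 2.43-fold, 2.47-fold and 2.31-fold.

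The enzymes that cut ATP and ADP ahead of CD73 differed in kind and in spread. Entpd1 (ENSMUSG00000048120, chromosome 19), CD39, the ATP-cutting enzyme of leukocytes and endothelium, was near silent, with 2 counts in KPC142, 1 each in KPC490 and KPC630 and 0 in the other 3 lines. Its level stayed at 0.120 CPM or less, so no ratio is given.

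Entpd2 (ENSMUSG00000015085, chromosome 2), which encodes a related enzyme that turns ATP mainly into ADP, stood at 12.4 CPM in KPC142, 9.08 in KPC850, 6.09 in KPC180, 5.79 in KPC490, 4.24 in KPC630 and 1.18 in KPC469. KPC142 was highest and KPC469 lowest, at a ratio of 10.5 (6.77 to 17.2). As for Nt5e, the range rested on KPC469, and without it the ratio of KPC142 to KPC630 was 2.92 (2.24 to 3.83). KPC180 and KPC490 did not differ beyond counting error (1.05-fold, 0.789 to 1.40). In the annotation Entpd2 overlaps Npdc1 on the same strand, a gene with 973 to 1290 counts per line. How reads in the overlap were assigned was not tested. The deposited values of Entpd2 lay within 0.03 of a whole count, which does not tell to which gene such reads went.

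Enpp1 (ENSMUSG00000037370, chromosome 10), a membrane enzyme that cuts ATP directly to AMP and pyrophosphate and also hydrolyses cGAMP, was even over most lines. It stood at 75.3 CPM in KPC180, 73.3 in KPC630, 73.2 in KPC490, 58.7 in KPC469, 55.6 in KPC850 and 31.0 in KPC142. KPC142 alone was low, 1.79-fold below the next line, KPC850, and the ratio of KPC180 to KPC142 was 2.43 (2.19 to 2.69). Without KPC142 the range was 1.35-fold. KPC180, KPC630 and KPC490 did not differ in order beyond counting error, nor did KPC469 and KPC850. Enpp3 (ENSMUSG00000019989, chromosome 10), an enzyme of the same family, was low: 2.42 CPM in KPC850, 0.853 in KPC180, 0.753 in KPC490, 0.598 in KPC142, 0.428 in KPC469 and 0.161 in KPC630 (3 counts). KPC850 exceeded KPC180 by 2.83-fold (1.51 to 5.63), and no neighbours below it differed beyond counting error. Its range of 15.0-fold was 5.29-fold without KPC850 and 5.65-fold without KPC630.

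Ada (ENSMUSG00000017697, chromosome 2), which deaminates adenosine to inosine, stood at 22.9 CPM in KPC142, 11.0 in KPC630, 9.26 in KPC490, 7.43 in KPC469, 5.79 in KPC180 and 5.36 in KPC850. KPC142 was high, 2.07-fold above KPC630 (1.75 to 2.47), and 4.26-fold above KPC850 (3.38 to 5.41), the lowest line. Without KPC142 the range was 2.05-fold. Each step between neighbours among the other 5 lines was within counting error. The lines with the most Nt5e, KPC850 and KPC180, had the lowest measured Ada. KPC469, the line with the least Nt5e, was within counting error of KPC180 in Ada (1.28-fold, 0.982 to 1.68). Adk (ENSMUSG00000039197, chromosome 14), which returns adenosine to AMP inside the cell, stood at 114 CPM in KPC630, 102 in KPC490, 80.8 in KPC850, 79.9 in KPC180, 72.6 in KPC469 and 46.1 in KPC142. Here KPC142 was the lowest line, with a ratio of KPC630 to KPC142 of 2.47 (2.27 to 2.69), and without it the range was 1.57-fold. KPC850 and KPC180 did not differ beyond counting error.

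The ratio of Nt5e to Ada within a library sets the gene of adenosine formation beside that of its deamination, with both levels taken as CPM per kilobase of protein-coding transcript (1 such transcript each, of 3995 and 1688 bases). This ratio of RNA levels was 8.44 in KPC850 (6.84 to 10.5), 7.67 in KPC180 (6.23 to 9.53) and 2.07 in KPC490 (1.74 to 2.47). It was 1.08 in KPC630 (0.917 to 1.28), 0.623 in KPC142 (0.546 to 0.711) and 0.325 in KPC469 (0.250 to 0.422). The lines thus spread over 26.0-fold in this ratio, more than in Nt5e (18.7-fold) or Ada (4.26-fold) alone. Without KPC469 the spread was 13.6-fold, from KPC850 to KPC142. KPC142 had 5.89 times as much Nt5e as KPC469 (4.78 to 7.31) but only 1.91 times its ratio.

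**Figure D3:**
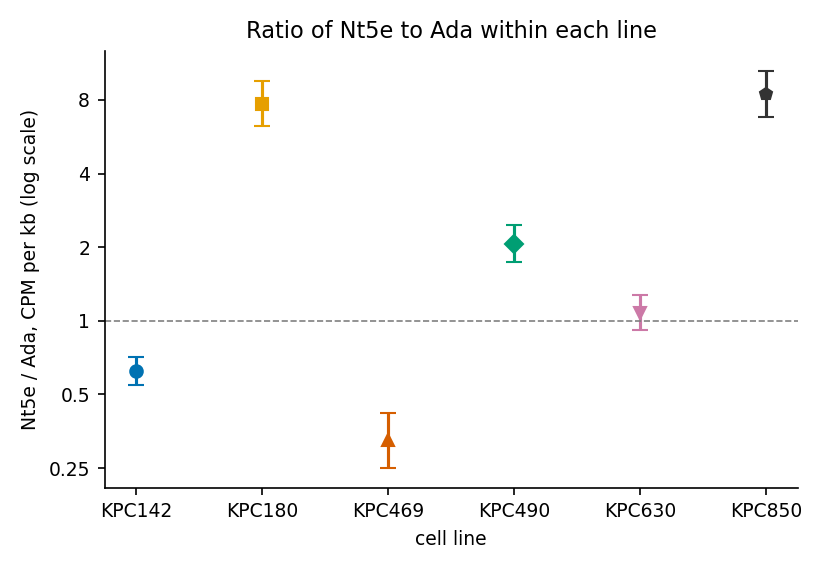
Ratio of Nt5e to Ada, each in CPM per kilobase, on a log scale (vertical axis) in each line (horizontal axis). Bars are exact 95% intervals for counting error within the library and the dashed line marks a ratio of 1. KPC850 and KPC180 lie at 8.44 and 7.67, KPC142 and KPC469 below 1.

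For Ada and Entpd2, the members besides Nt5e with a range of 4-fold or more at 10 CPM, the bases before the start site are shown, from RefSeq on GRCm38.p6. All 10 genes were found in the RefSeq table, and the window of Nt5e is not shown because the bases before its RefSeq start lie inside another annotated transcript of the gene. Capitals mark matches, on either strand, to 6 motifs: the cores ACGTG and GCGTG bound by hypoxia-inducible factors (HIF), the cyclic AMP response core TGACG, the SP1 site GGGCGG, the AP-1 site TGANTCA and the TEAD site GGAATG.
Entpd2, chr2:25395624-25395873, + strand: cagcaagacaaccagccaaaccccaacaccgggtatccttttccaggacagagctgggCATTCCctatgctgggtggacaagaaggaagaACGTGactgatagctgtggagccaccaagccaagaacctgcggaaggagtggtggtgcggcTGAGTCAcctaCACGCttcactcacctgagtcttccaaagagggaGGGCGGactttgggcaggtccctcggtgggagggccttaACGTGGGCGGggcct
Ada, chr2:163750240-163750489, - strand: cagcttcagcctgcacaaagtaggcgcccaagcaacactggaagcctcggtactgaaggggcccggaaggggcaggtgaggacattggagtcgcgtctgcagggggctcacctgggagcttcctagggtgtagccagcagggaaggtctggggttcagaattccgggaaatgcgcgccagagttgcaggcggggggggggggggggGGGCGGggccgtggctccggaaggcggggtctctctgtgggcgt
Counted from -1 at the base before the start, Entpd2 held ACGTG at -160 to -156 and at -15 to -11, GCGTG on the opposite strand at -88 to -84, and GGGCGG at -54 to -49 and at -11 to -6. The last of these shares 1 base with the ACGTG before it. Entpd2 also held the AP-1 letters at -99 to -93 and the TEAD letters on the opposite strand at -192 to -187. Ada held GGGCGG at -44 to -39 and none of the other letters. Such matches are common: of 32851 RefSeq windows of 250 bases, 16.6% held ACGTG, 28.2% GCGTG, 17.8% TGACG, 32.7% GGGCGG, 6.75% TGANTCA and 12.6% GGAATG. No binding was measured here.

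Slc29a1 (ENSMUSG00000023942, chromosome 17), ENT1, which carries adenosine across the membrane in both directions, had the highest CPM of the set in every line. It stood at 230 CPM in KPC469, 195 in KPC180, 186 in KPC850, 161 in KPC630, 139 in KPC490 and 99.5 in KPC142. KPC142 was again low, with a ratio of KPC469 to KPC142 of 2.31 (2.18 to 2.45), and KPC180 and KPC850 were within counting error of each other. The deposited values of Slc29a1 were up to 0.40 away from a whole count, so some of its reads were assigned fractionally, and an antisense gene in its locus had 2 to 21 counts. Of the other equilibrative transporters, 2 varied little. Slc29a2 (ENT2) ran from 8.72 CPM in KPC850 to 14.7 in KPC490, and Slc29a3 (ENT3), a transporter of lysosomes, from 10.6 in KPC142 to 18.8 in KPC630. Slc29a4 stayed under 1 CPM, with 13 counts in KPC490, 12 in KPC630 and 0 in KPC469.

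**Figure D4:**
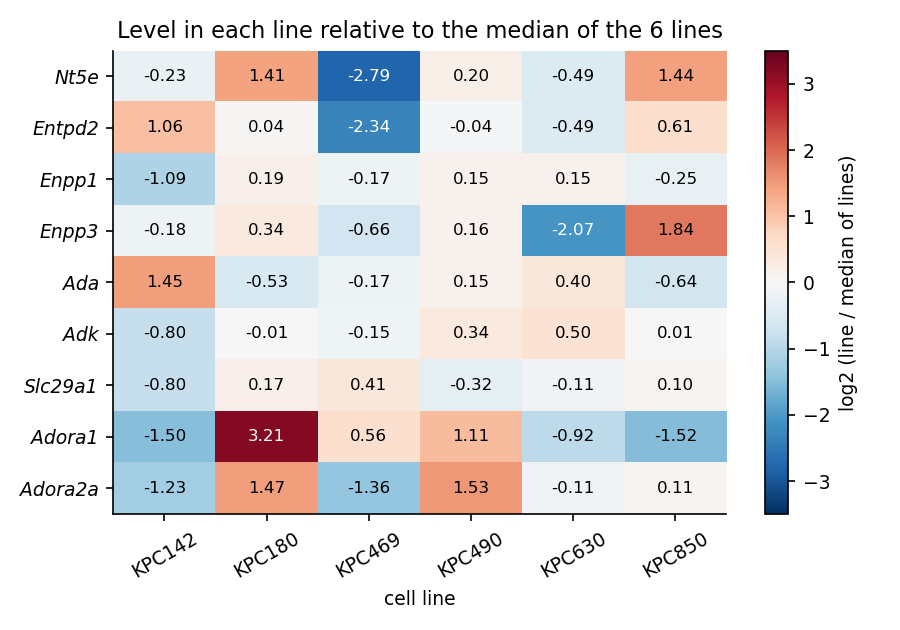
Level of each gene (rows) in each line (columns) as log2 of that line over the median of the 6 lines, printed in each cell, with lines under 3 counts set to 3. Red is above and blue below the median. Nt5e and Entpd2 are lowest in KPC469 (-2.79 and -2.34), and Enpp1, Adk and Slc29a1 in KPC142 (-1.09, -0.80 and -0.80).

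The 2 receptor genes of the set were low. Adora1 (ENSMUSG00000042429, chromosome 1), whose A1 receptor lowers cyclic AMP, had 4.69 CPM in KPC180, 1.10 in KPC490, 0.748 in KPC469, 0.269 in KPC630 and 1 count each in KPC142 and KPC850 (0.0598 and 0.0589 CPM). KPC180 exceeded KPC490 by 4.26-fold (2.56 to 7.46), and the ratio of KPC180 to KPC850 was 79.6, with a wide counting interval of 13.9 to 3184. With lines under 3 counts set to 3 its range was 26.5-fold, and 6.22-fold without KPC180. Adora2b (ENSMUSG00000018500, chromosome 11), the low-affinity A2B receptor that raises cyclic AMP, had 5 counts in KPC490, 1 each in KPC180 and KPC630 and 0 in the other 3 lines, at most 0.290 CPM. In those 3 lines a count of 0 allows up to 0.160 to 0.179 CPM.

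Adora2a, which encodes a high-affinity receptor that raises cyclic AMP, was the adenosine receptor gene with the highest CPM in every line. It stood at 16.6 CPM in KPC490, 15.9 in KPC180, 6.19 in KPC850, 5.32 in KPC630, 2.45 in KPC142 and 2.24 in KPC469. KPC490 and KPC180 were high and did not differ beyond counting error (1.05-fold, 0.881 to 1.24), and KPC142 and KPC469 were low, also without a difference beyond it (1.09-fold, 0.693 to 1.72). The ratio of KPC490 to KPC469 was 7.40 (5.34 to 10.5), and without KPC469 that of KPC490 to KPC142 was 6.78 (4.87 to 9.64). Per kilobase, Adora2a made 95.6% to 99.9% of the summed level of the 4 receptor genes in a line with the median length of a gene's protein-coding transcripts, and 85.2% to 99.5% with the longest. Adora3 had 0 counts in every line.

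The same scale orders the other steps, with the caution that annotated partial transcripts shorten the median length of Adk (617 bases, longest 1818), Slc29a1 (868, longest 2216) and Enpp3. The median length of Adora2a, used for the receptor shares above, is also short (569.5, longest 2596). For cutting ATP and ADP outside the cell, Entpd1, Entpd2, Entpd3, Entpd8, Enpp1 and Enpp3 were summed. Enpp1 made 46.5% to 90.4% of this sum and Entpd2 4.44% to 45.5%. The highest share of Entpd2 was in KPC142, where the order of the 2 turned with the longest transcript (Entpd2 55.3%, Enpp1 39.6%). The sum leaves out Enpp4 and Enpp2 of the wider list, so these are not shares of the whole step. Enpp4 stood at 3.09 to 9.68 CPM per kilobase and Enpp2 at 0 to 11.7, beside 0.608 to 6.40 for Entpd2. Adk made 84.6% to 97.6% of the summed level of Adk and Ada (65.2% to 93.3% with the longest), with the lowest share in KPC142. Slc29a1 made 94.2% to 96.8% of the level of the 4 equilibrative transporters (88.1% to 93.0%).

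No line was the peak of the whole set. Among the 8 genes at 1 CPM, KPC850 was highest for 2 (Nt5e and Enpp3), beside 15.5% of all genes at that level, and lowest for 2 (Ada and Adora1), beside 15.1%. KPC180 was also highest for 2 (Enpp1 and Adora1), beside 16.2%, and lowest for none of the 8, beside 16.6%. KPC142 was highest for 2 (Entpd2 and Ada), beside 19.4%, and lowest for 3 (Enpp1, Adk and Slc29a1), beside 21.1%. KPC469 was lowest for Nt5e and Entpd2, beside 21.3%, and highest for Slc29a1, beside 19.6%. These placings follow the measured values, and several were within counting error of the next line. At the high end this held for Nt5e (KPC850 and KPC180) and Enpp1 (KPC180 and KPC630, 1.03-fold, 0.951 to 1.11). At the low end it held for Ada (KPC850 and KPC180, 1.08-fold, 0.801 to 1.45) and Adora1 (KPC850 and KPC142, 1 count each).

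A wider list of 53 genes of extracellular purine handling held 32 genes at 1 CPM, 16 of them with highest over lowest at 4-fold or more, and 22 at 10 CPM, of which 6 had such a range. These shares stand beside 27.1% and 15.5% of all genes, and 8 of the 53 had no counts at all. This list, too, was chosen with earlier results of these data known. The 6 were Gja1, Entpd5, Enpp2, Ampd3, Adora2a and P2ry1. Ampd3 and P2ry1 reached 10 CPM only in their highest line, and Entpd3, among others, reached 1 CPM only there. For such genes the filter itself favoured a wide range. Gja1 (connexin 43), whose hemichannels can release ATP, was lowest in KPC142 at 3.71 CPM and highest in KPC850 at 72.6, a ratio of 19.6 (15.2 to 25.7), with 28.5 to 50.3 in the other 4 lines. Without KPC142 its range was 2.54-fold. Ampd3, an AMP deaminase that takes AMP away from adenosine formation inside the cell, was highest in KPC142 (12.9 CPM) and lowest in KPC490 (0.869), a ratio of 14.8 (8.78 to 26.9), with 2.69 to 5.13 in the other 4 lines. Its range was 4.79-fold without KPC490 and 5.91-fold without KPC142. Panx1, another ATP release channel, varied by only 1.69-fold (1.42 to 2.01).

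Enpp2, autotaxin, which mainly makes lysophosphatidic acid, had 0 counts in KPC180 and 1.53 CPM in KPC850, against 31.6 in KPC490, 19.1 in KPC469, 13.8 in KPC142 and 4.08 in KPC630. KPC490 was at least 173-fold above KPC180, with the latter set to 3 counts in that library. Without KPC180 the range was 20.6-fold, and without KPC490 that of KPC469 over KPC180 was at least 104-fold. Entpd5, an enzyme of the endoplasmic reticulum that cuts UDP and GDP, was highest in KPC850 (75.3 CPM) and lowest in KPC180 (14.3). The ratio was 5.28 (4.59 to 6.10), and the range was 3.49-fold without KPC850 and 3.87-fold without KPC180. Entpd6 and Entpd7 varied by 1.53-fold and 1.73-fold. Entpd3 passed 1 CPM only in KPC630, at 2.63, and Entpd8 in no line. Entpd4 and its annotated copy Entpd4b are both listed at 0 in every line.

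P2ry1, a receptor for ADP, was low in 2 lines. It stood at 12.3 CPM in KPC490, 9.81 in KPC180, 6.88 in KPC630 and 5.95 in KPC850, against 4 counts in KPC142 (0.239 CPM) and 5 in KPC469 (0.267). The ratio of KPC490 to KPC142 was 51.5 (19.8 to 190.9). KPC142 and KPC469, low for P2ry1, were also the lowest lines for Adora2a. Of the 15 P2 receptors, 7 reached 1 CPM and 3 reached 10 CPM.

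**Figure D5:**
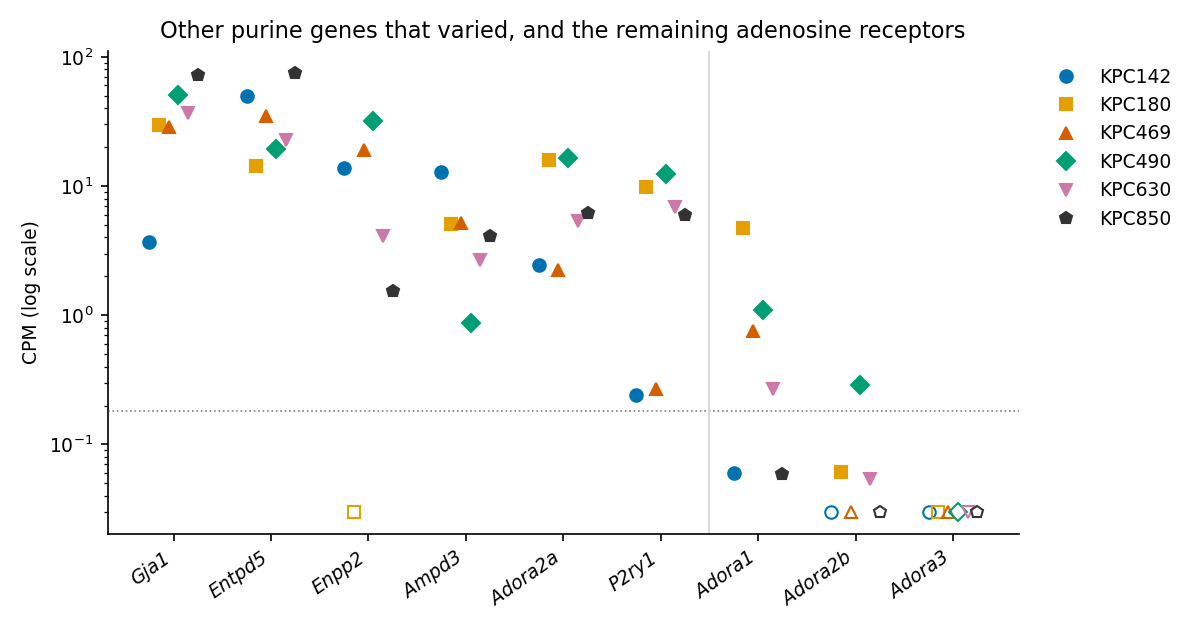
CPM on a log scale (vertical axis) in each line of the 6 further purine genes with at least 10 CPM and a range of 4-fold or more, and, right of the grey line, the other adenosine receptor genes. Open symbols at the bottom mark 0 counts and the dotted line 0.183 CPM. Adora2a lies between 2.24 and 16.6 CPM, above the other adenosine receptor genes in every line.

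Genes whose pattern over the 6 lines was most like that of Nt5e were sought among the 10229 genes at 10 CPM, by the root mean square distance of log2 CPM profiles centred on their means. The nearest was Dhh, a hedgehog ligand, at 0.31 log2 units, with 78.5 CPM in KPC180, 59.5 in KPC850, 22.4 in KPC630, 21.5 in KPC490, 18.3 in KPC142 and 4.81 in KPC469. Then came Lyn, a kinase of the Src family (0.43), Map3k13 (0.45), Mrc1, the mannose receptor gene (0.46), and Phlda2 (0.47). Each was lowest in KPC469 and had KPC180 and KPC850 as its highest lines. Within the adenosine genes, Entpd2 was nearest to Nt5e (0.86, rank 121), and Ada the farthest of those at 10 CPM (1.74, rank 8960). Near to Ada were Sfmbt1 (0.25) and Neurl1b (0.25), both highest in KPC142. Distances over 6 libraries describe these libraries only, and a near gene is easily found among so many.

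Pcdh7, the protocadherin in the title of the study, had the same high and low ends as Nt5e, with 133 CPM in KPC850, 109 in KPC180, 47.5 in KPC490, 4.31 in KPC142, 3.81 in KPC630 and 0.107 (2 counts) in KPC469. A common order of all 6 lines is not resolved, since KPC142 and KPC630 did not differ beyond counting error in Pcdh7 (1.13-fold, 0.802 to 1.59), nor KPC850 and KPC180 in Nt5e. The measured values ran in the same order in both genes, while the distance between the profiles was 1.93 log2 units. This was rank 9448 among the 10229 genes, farther from Nt5e than Ada (rank 8960). This distance also grows with the size of the differences. The ratio of KPC850 to KPC469 was 1244 (344.0 to 10280) for Pcdh7, beside 18.7 for Nt5e.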

How the data were processed

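The authors deposited expected counts for each Ensembl gene, the estimates that RSEM makes when reads are shared among transcripts. Per the submitters' processing notes, Trimmomatic 0.36, STAR 2.7.10b, RSEM 1.3.3 and the build GRCm39 were used, and per the labels' protocols the kit was a stranded mRNA kit. The strand setting and annotation release are not given in the sources used here. The expected counts were rounded and scaled to CPM with edgeR 4.0.16 TMM factors in R 4.3.3, computed on genes at 1 CPM or above in some line. Symbols (52029 of 56953 identifiers) and transcript lengths came from GENCODE vM21, which is built on GRCm38.

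The members and lists were chosen with earlier results of these data known. Named genes were all 10 members, genes of the wider list with at least 10 CPM and a range of 4-fold or more, the remaining Adora, Entpd and Slc29a genes, the 5 genes nearest to Nt5e and 3 to Ada (log2 CPM with a prior count of 2), and Pcdh7. One gene that this rule names is not reported here. Panx1, Npdc1, the hypoxia genes and the cyclases named in the closing section were named after their values were seen. The ratio calculations were tested on simulated data. No test between groups was made, since each line has 1 library. Alternatives were DESeq2 1.42.0 size factors, library totals, unrounded counts, other filters, a floor of 10 counts, a call on the lower interval limit, and leaving out each line.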

Additional observations from a re-analysis of the deposited data

How the results depend on the processing

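No paired analysis was possible because each line has 1 library. With DESeq2 size factors, library totals alone or unrounded counts, the counts of 5 adenosine genes and 16 wider purine genes with a range of 4-fold or more did not change, and the Nt5e ratio stayed between 18.4 and 18.7. Under the other 2 normalizations the ratios of the other 7 members at 1 CPM gave 14 values, none outside its counting interval. With genes of at least 10 CPM, 3 adenosine genes, 6 wider genes and 15.5% of all genes had that range. With filterByExpr, which asks for counts in every line, these were 3, 5 and 13.8%. Taking in all genes that have a count, it was 5 adenosine genes, 19 wider genes and 17.9%. With the lower interval limit it was 4, 11 and 16.4%, and with a floor of 10 counts 5, 10 and 20.6%. These settings test fewer genes, add genes near 0 or ask for more. Leaving out each line in turn gave 3 to 5 adenosine genes, 14 to 16 wider genes, 22.2% to 25.3% of all genes and 2 to 3 members highest in KPC850. The count was 3 without KPC469, when Nt5e and Entpd2 no longer reached 4-fold, and 3 without KPC850, when Ada no longer reached 4-fold and Enpp3 no longer 1 CPM. The Nt5e ratio was 3.81 without KPC469 and 18.4 to 18.7 without any other line. The spread of the Nt5e to Ada ratio was 13.6 to 26.0 with a line left out, lowest without KPC469. Leaving out lines for this ratio and for single genes was added after seeing the data. With the longest transcript, levels per kilobase of 3 of 10 members (Enpp3, Adk and Slc29a1) left the range of their lines. Depth limits Entpd1, Adora2b, Adora1 and Enpp3, which have few counts in most lines.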

Other observations

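Genes that carry the adenosine receptor signal inside the cell varied about as often as genes in general. In a list of 22 genes of cyclic AMP signalling, 18 reached 1 CPM and 5 ranged over 4-fold or more, beside 27.1% of all genes, and the median range was 2.49-fold beside 2.16-fold over all genes at that level. Named after their values were seen, 2 adenylyl cyclase genes were near silent in the same 2 lines. Adcy1 had 1 count in KPC142 and 0 in KPC850, against 11.2 to 13.7 CPM in the other 4 lines. Adcy3 had 4 and 3 counts in KPC142 and KPC850, against 7.18 to 12.9 CPM in the others. Adcy7 was split in another way, with 34.0 CPM in KPC469, 22.0 in KPC142 and 18.5 in KPC180, and 2.08 to 3.71 in the other 3. Adcy6, the most abundant cyclase in CPM, was expressed in every line, and Gnas, the stimulatory G protein gene, reached 710 CPM.

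In a list of 12 genes of the response to hypoxia, in which Nt5e is also known as a target, 11 reached 1 CPM and 5 had a range of 4-fold or more, beside 27.1% of all genes. Of the 11, 5 were lowest in KPC469, as Nt5e was, beside 21.3% of all genes. Among these, and likewise named after its values were seen, Slc16a3, a lactate exporter, stood at 4.44 CPM in KPC469 and 231.4 in KPC850. These are the lowest and highest lines of Nt5e, and no other gene of the 11 had both ends there. Of the 11, 2 were highest in KPC850, beside 15.5% of all genes. Vegfa had its next to highest level in KPC469 (158 CPM), and Hif1a its lowest in KPC850 (186). Egln3, a prolyl hydroxylase that responds to HIF, was at 0.609 CPM in KPC180, where Nt5e was at 105. A link between Nt5e and the response to hypoxia was not tested.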
